A study of Sus scrofa with 6 samples.

Results

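The insulin-like growth factor (IGF) axis was described in subcutaneous fat of pigs through its ligands, receptors and binding proteins. Its members were a list of 10 symbols, and 8 of them were paired with a row among the 22844 rows of the tables: IGF1, the receptors IGF1R and IGF2R, and the binding proteins IGFBP2, IGFBP4, IGFBP5, IGFBP6 and IGFBP7. IGF2 and IGFBP3 were not paired with a row by the identifier table and are not analysed here. The 3 resveratrol libraries came from subcutaneous fat of Duroc × Landrace × Yorkshire hybrids on a diet with 400 mg/kg RES (resveratrol, a plant polyphenol), and the 3 control libraries from the same kind of pig on the control diet. The labels' protocols give a Trizol extraction of total RNA and a library kit for long non-coding RNA. The labels used here give no age, sex or length of feeding.

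IGF1 and IGF2 are small secreted hormones related to insulin that act mainly through the tyrosine kinase IGF1R, while IGF2R takes up IGF2 for breakdown and carries lysosomal enzymes. In blood and tissue most IGF is held by binding proteins, which prolong its life and limit or direct its access to the receptor until proteases cut them. In fat, IGF signalling is known to promote the growth of preadipocytes and their differentiation to fat cells, and growth hormone is a main inducer of IGF1.

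The deposited read counts, summed over all rows, ran from 34436239 to 37943877 in the resveratrol libraries. In the control libraries they ran from 16251536 (control 2) to 34048559. Adipocyte transcripts were high in every library. The 6 adipocyte markers summed to 20911 to 26535 TPM in resveratrol and 17062 to 23964 TPM in control, with none at 0, where TPM is an abundance scaled for transcript length and for the size of the library. The 5 skeletal muscle markers with a row summed to at most 27.5 TPM in resveratrol and 6.21 TPM in control, and 4 of them stayed under 1 TPM in every library. Among the 14908 rows tested, whose TPM averaged 0.5 or more, edgeR's quasi-likelihood test called 0 at a Benjamini-Hochberg adjusted p under 0.05, which is 0% of the rows, while 973 rows (6.53%) had an unadjusted p under 0.05. That number was 562 without resveratrol 1, 408 without resveratrol 3 and 1678 without control 3. DESeq2 called 40 rows (0.269%), with 1100 (7.39%) at an unadjusted p under 0.05, and limma on log2(TPM + 0.5) called 0, with 755 rows (5.06%) at an unadjusted p under 0.05.

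The comparison of the diets asked whether transcripts of this axis differed in fat after resveratrol. No member passed the adjusted threshold in edgeR, DESeq2 or limma, and 0 of the 8 had an unadjusted p under 0.05 in any of these tools on all 6 libraries. All 8 passed the filter on low values, with 131 to 14920 reads per library. Log2 fold changes (resveratrol over control) lay between -0.38 for IGFBP5 and 0.019 for IGFBP4, and their median was -0.22, beside -0.0075 over all tested rows. The estimate was below 0 for 7 of the 8 members, beside 51.2% of all tested rows. With single libraries left out, only the loss of control 1 turned the sign of this median. Without control 1 the median was 0.070 and 4 of the 8 members were above 0. Without control 2 it was -0.27 with 0 of 8 above 0. It was -0.19 without resveratrol 1, -0.31 without resveratrol 2, -0.14 without resveratrol 3 and -0.19 without control 3. In limma on log2(TPM + 0.5) the members' median was -0.21, beside -0.079 over all rows. These are bulk samples, in which fewer cells of a type and less RNA per cell cannot be told apart.

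**Figure D1:**
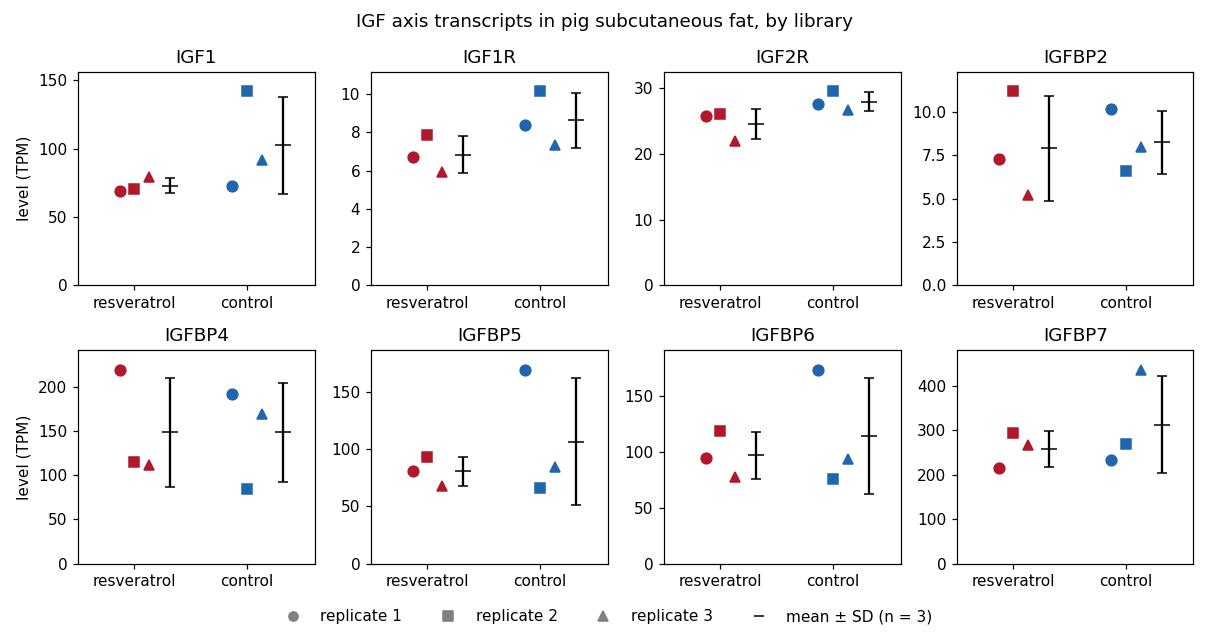
Deposited level (TPM, linear axis from 0) of each member in the 3 resveratrol and 3 control libraries, with symbols for replicate numbers and the mean ± SD beside each group. The groups overlap in every panel but IGF2R, and 1 control library stands highest for IGF1 (control 2), IGFBP5 and IGFBP6 (control 1) and IGFBP7 (control 3).

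IGF1 (ENSSSCG00000000857.4), the ligand, was high in deposited TPM, at percentile 92.1 of the tested rows by its mean. By reads alone it was the 7th of the 8 members, since its reads per TPM, which follow the assigned length, were low. It measured 68.9, 70.8 and 79.0 TPM in resveratrol 1, 2 and 3 and 73.0, 142 and 92.0 TPM in control 1, 2 and 3. The resveratrol libraries lay close together, and control 1 lay among them while control 2 stood well above all others. The means were 72.9 ± 5.36 TPM in resveratrol and 102 ± 35.7 TPM in control (SD, n = 3 each). The log2 fold change was -0.35 (SE 0.18, interval -0.76 to 0.062, edgeR adjusted p = 0.733), the smallest p among the members. Without control 2 it was -0.19. Leaving out control 1 put it at -0.48, with an unadjusted p of 0.0283 and an adjusted p of 0.699 in edgeR. In that fit 1058 of 14895 rows had an unadjusted p under 0.05. The coefficient of variation of TPM was 7.36% in resveratrol and 34.9% in control, beside medians over all tested rows of 13.9% in resveratrol and 23.3% in control. Growth hormone receptor (GHR), through which growth hormone induces IGF1, measured 91.4, 86.9 and 96.6 TPM in resveratrol and 74.0, 116 and 97.0 TPM in control. Its TPM in the control libraries followed the order of IGF1, lowest in control 1 and highest in control 2, but by CPM, which are counts scaled for library size by TMM and not for length, control 3 (314) lay above control 2 (311). Its log2 fold change was 0.047 (SE 0.19, edgeR adjusted p = 0.965).

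The genes whose pattern over the 6 libraries was most like that of IGF1 were EHBP1, WDR26 and RTN4. Their centred log2 CPM differed from those of IGF1 by 0.0555, 0.0626 and 0.0649 on average, beside a median of 0.28 over the 7672 genes compared. RTN4, a protein that shapes the endoplasmic reticulum, measured 131, 135 and 150.1 TPM in resveratrol and 109, 264 and 148 TPM in control. All 3 peaked in control 2, the library with the fewest reads, which follows from their choice by likeness to IGF1. The part of depth in this pattern was not tested.

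Per length, both receptors were lower than the ligand in every library, while by reads alone both were higher. IGF1R (ENSSSCG00000030560.2), the signalling receptor, measured 6.69, 7.86 and 5.94 TPM in resveratrol and 8.39, 10.1 and 7.33 TPM in control. Only resveratrol 2 and control 3 crossed between the groups. The means were 6.83 ± 0.966 TPM in resveratrol and 8.63 ± 1.42 TPM in control, and the log2 fold change was -0.24 (SE 0.15, interval -0.58 to 0.11, edgeR adjusted p = 0.745).

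IGF2R (ENSSSCG00000004044.4), the clearing receptor, measured 25.7, 26.1 and 21.9 TPM in resveratrol and 27.6, 29.5 and 26.8 TPM in control. Every resveratrol library lay below every control library in TPM, the single member of 8 for which the groups did not overlap, where this held for 12.3% of all tested rows (8.15% in this direction). On the scale of CPM the groups overlapped, with 355, 355 and 331 CPM in resveratrol and 389, 346 and 377 CPM in control. Groups did not overlap in CPM for 0 of 8 members and 12.6% of all tested rows. The log2 fold change from counts was -0.094 (SE 0.17, interval -0.46 to 0.27, edgeR adjusted p = 0.906), and it was -0.19 (SE 0.15) in limma on log2(TPM + 0.5). The ratio of IGF2R to IGF1R in TPM was 3.85, 3.32 and 3.69 in resveratrol and 3.29, 2.91 and 3.65 in control, so that control 3 lay within the range of resveratrol.

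Of the members, the binding proteins IGFBP7, IGFBP4, IGFBP6 and IGFBP5 had the highest deposited TPM, and IGFBP2 was among the lowest. By mean TPM over the 6 libraries the order was IGFBP7 (286 TPM), IGFBP4 (149 TPM), IGFBP6 (106 TPM), IGFBP5 (93.6 TPM), IGF1 (87.6 TPM), IGF2R (26.3 TPM), IGFBP2 (8.08 TPM) and IGF1R (7.73 TPM). The ranges of IGF1 and IGF2R did not overlap, and neither did those of IGF2R and IGFBP2, while those of all other neighbours in this order did. IGFBP7 exceeded IGFBP4 in 5 of 6 libraries, with resveratrol 1 the exception. IGFBP6 exceeded IGFBP5 in 6 of 6, IGFBP5 exceeded IGF1 in 3, and IGFBP2 exceeded IGF1R in 4.

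The order depends on the lengths that the authors assigned. Reads per TPM, which follow that length, were 0.179 to 0.189 of the library's median row for IGF1, against 7.51 to 7.64 for IGF2R and 4.01 to 4.07 for IGF1R. For the 5 binding proteins they lay between 0.469 and 0.728. By reads alone IGF2R was first, at 359 CPM over the 6 libraries, and IGF1 was the 7th of 8, at 28.7 CPM. The IGF1 row joined 7 transcripts and the IGF2R row 1. Among the binding proteins, IGFBP7 joined 3, IGFBP4 and IGFBP5 2 each, and IGFBP6 and IGFBP2 1 each. For IGFBP4 and IGFBP5 the deposited reads were even numbers in every library. The row of CDH5, a blood endothelial marker, joined 3 transcripts, and its reads were multiples of 3 in every library. Those of IGF1, IGF1R and IGFBP7 were not all multiples of their transcript number. A row that joins transcripts, such as IGFBP4 or IGFBP5, may thus count the same reads more than once, which was not tested. The order, and the sums and shares below, may depend on the number of transcripts joined. This holds in particular where IGFBP4 and IGFBP5 are set beside IGFBP6, a row of 1 transcript, or beside IGF1.

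The 5 binding protein transcripts with a row summed to 618, 632 and 528 TPM in resveratrol and 779, 503 and 793 TPM in control. The sum was between the values of control 2 and control 1 in every resveratrol library. Set over IGF1, the sum was 8.96, 8.93 and 6.68 in resveratrol and 10.7, 3.54 and 8.63 in control, and control 2, with its high IGF1, stood apart below. IGFBP7 made up 34.7%, 46.5% and 50.5% of the sum in resveratrol and 29.9%, 53.5% and 55.1% in control.

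IGFBP7 (ENSSSCG00000008913.3), a relative of the family that binds IGF weakly and is known from vessel walls, measured 215, 294 and 266 TPM in resveratrol and 233, 269 and 437 TPM in control. Control 3 stood alone above the rest. The means were 258 ± 40.2 TPM in resveratrol and 313 ± 109 TPM in control, with a log2 fold change of -0.22 (SE 0.29, interval -0.86 to 0.42, edgeR adjusted p = 0.868), and it was 0.21 without control 3. The 4 blood endothelial markers with a row summed to 189 to 207 TPM in resveratrol and to 193 to 259 TPM in control, with none at 0. That sum was highest in control 2 by TPM, but by CPM it was highest in control 3, at 1013 CPM beside 952 CPM in control 2. Of this list, PECAM1 and CDH5 were highest in control 3 by CPM, but KDR and TEK were highest in resveratrol 3. IGFBP7 peaked in control 3, and the part of endothelial transcripts in IGFBP7 was not tested.

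IGFBP4 (ENSSSCG00000017472.3), an inhibitor of IGF action that is cut by the protease PAPPA, measured 220.3, 115 and 111 TPM in resveratrol and 192, 85.1 and 169.7 TPM in control. Its libraries spread widely within both groups, with resveratrol 1 highest and control 2 lowest. The means were 149 ± 61.9 TPM in resveratrol and 149 ± 56.6 TPM in control. The log2 fold change of 0.019 had an SE of 0.40 and an interval of -0.89 to 0.93 (edgeR adjusted p = 0.996), and it was -0.34 without resveratrol 1 and -0.31 without control 2. The 8 macrophage markers summed to 814, 558 and 518 TPM in resveratrol and 526, 507 and 414 TPM in control, none at 0, so that resveratrol 1 was the highest library for this list too. The lowest library for the macrophage list was control 3, where IGFBP4 was at 169.7 TPM. Nerve and lymphocyte markers also summed highest in resveratrol 1, at 22.5 and 10.8 TPM. The part of these lists in the level of IGFBP4 was not tested.

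IGFBP5 (ENSSSCG00000025924.3), which binds to the extracellular matrix, and IGFBP6 (ENSSSCG00000000261.3), which prefers IGF2 as its ligand, followed each other across the libraries. IGFBP5 measured 80.9, 93.0 and 67.8 TPM in resveratrol and 169.6, 66.1 and 84.3 TPM in control. IGFBP6 measured 94.4, 119 and 77.2 TPM in resveratrol and 174, 76.2 and 94.0 TPM in control. Both were highest in control 1 and lowest in control 2, with the resveratrol libraries between. The log2 fold change was -0.38 for IGFBP5 (SE 0.37, interval -1.21 to 0.46, edgeR adjusted p = 0.811) and -0.22 for IGFBP6 (SE 0.34, interval -0.98 to 0.55, edgeR adjusted p = 0.892). Without control 1 these became 0.20 and 0.29, so that 1 library set the sign of both. Without control 2 the value of IGFBP5 was -0.68, with an unadjusted p of 0.0417 and an adjusted p of 0.591 in edgeR.

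**Figure D2:**
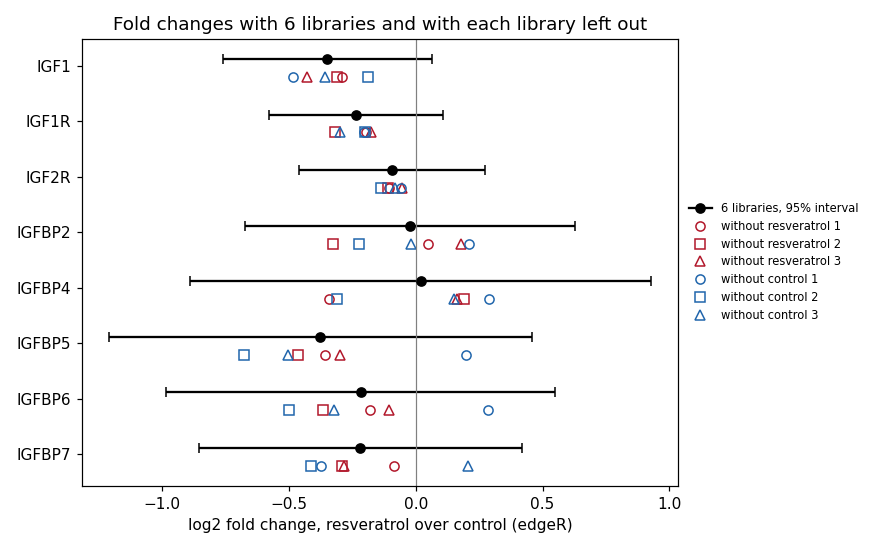
Log2 fold change of each member, resveratrol over control, in edgeR with 6 libraries (black point and 95% interval) and with each library left out (open symbols). All 8 intervals include 0, and leaving out control 1 puts IGFBP5 and IGFBP6 at 0.20 and 0.29 while leaving out control 3 puts IGFBP7 at 0.21.

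Of the 28 pairs of members, IGFBP5 and IGFBP6 were the most alike, with a mean absolute difference of 0.07 between centred log2 CPM, followed by IGF1R and IGF2R at 0.12. The least alike were IGFBP4 and IGFBP7 at 0.58. IGFBP2 and IGFBP5 are neighbouring genes in the RefSeq annotation of the pig assembly Sscrofa11.1, and their difference was 0.25. These are descriptions over 6 libraries, which share their scaling.

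**Figure D3:**
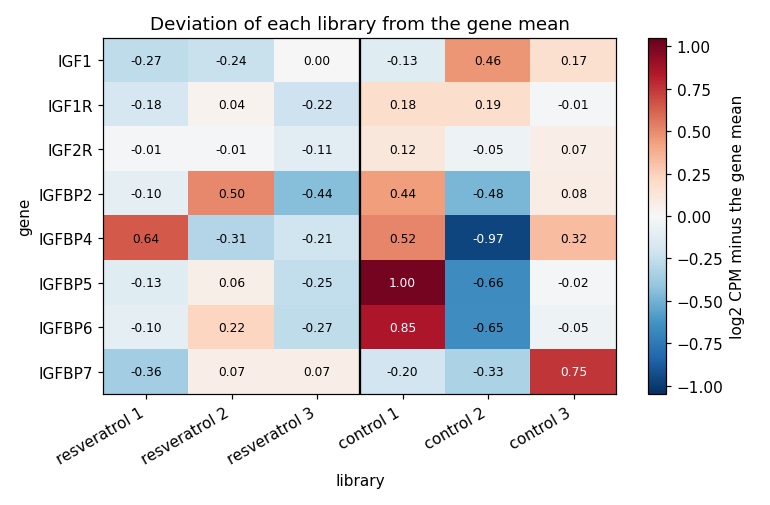
Log2 CPM of each member in each library minus its mean over the 6 libraries, with resveratrol left of the line and control right of it. IGFBP5 and IGFBP6 deviate together, by 1.002 and 0.85 in control 1 and by -0.66 and -0.65 in control 2, while IGF1 is at 0.46 and IGFBP4 at -0.97 in control 2.

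Transcripts of tendon and cartilage were also highest in control 1. The 8 genes of that list summed to 27.6, 36.8 and 19.98 TPM in resveratrol and 359.5, 36.5 and 76.1 TPM in control, with none at 0, and control 1 was the highest library for 8 of 8. Within each diet the order of the libraries by this sum was the order by IGFBP5 and by IGFBP6. In edgeR all 8 genes were lower in resveratrol, at a median log2 fold change of -2.88. Of them 5 had an unadjusted p under 0.05, beside 4.32% of all tested rows in this direction, and 0 passed the adjusted threshold. DESeq2 called 2 of the 8, beside 0.269% of all rows. The 6 stromal progenitor markers summed to 765, 786 and 714 TPM in resveratrol and 877, 852 and 473 TPM in control. Control 3, not control 2, was lowest for this sum, as it was by CPM (839.6 in control 3 and 1207 in control 2). DCN made up most of the sum, at 342 TPM in control 3. Gene by gene in TPM, control 3 was lowest for DCN and DPP4 only. PI16 was highest in control 1 and lowest in control 2, while LUM was lowest in control 1 and highest in control 2. PDGFRA and CD34 were lowest in resveratrol 3. The part of either list in the binding protein levels was not tested.

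**Figure D4:**
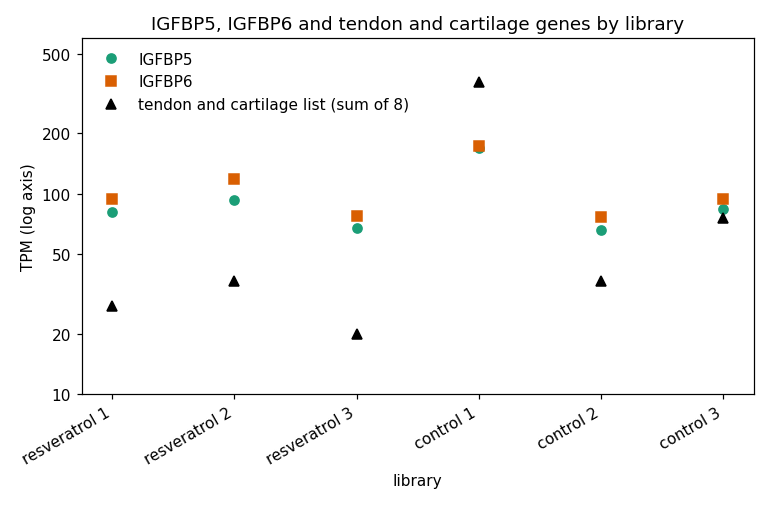
TPM (log axis) of IGFBP5, IGFBP6 and the sum of 8 tendon and cartilage genes in each library, resveratrol on the left and control on the right. In control 1 the list sums to 359.5 TPM, IGFBP5 is at 169.6 TPM and IGFBP6 at 174 TPM, each above all 5 other libraries.

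IGFBP2 (ENSSSCG00000035392.1), a binding protein that white fat cell precursors secrete in mouse, was among the lowest members. It measured 7.30, 11.2 and 5.24 TPM in resveratrol and 10.2, 6.60 and 7.98 TPM in control, with the control libraries inside the range of resveratrol. The log2 fold change was -0.024 (SE 0.29, interval -0.67 to 0.63, edgeR adjusted p = 0.991). Its sign turned with the scaling, to 0.060 with library totals alone, and without resveratrol 1 (0.048), resveratrol 3 (0.18) or control 1 (0.21).

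Of 40 other genes of the axis (proteases, carriers, growth hormone signalling, adaptors), 35 had a row and 31 were tested. ZBED6 and SOCS2, which were to be named, had no row with their symbol and are not analysed here. In edgeR 0 passed the adjusted threshold, 0 were higher and 1 was lower in resveratrol at an unadjusted p under 0.05 (2.21% and 4.32% of all tested rows). The median log2 fold change was -0.066, with 24 of 31 below 0, beside -0.0075 and 51.2% over all tested rows. At an unadjusted p under 0.05 in edgeR the axis count was 2 without control 1 (adding IGFALS, at 0.68). It was 3 without control 2 (adding STC2 and HTRA1) and 2 without control 3 (adding ITGB3). Over all rows the counts were then 1058 of 14895, 1230 of 14758 and 1678 of 14958. The axis count was 3 in limma on log2(TPM + 0.5), with STC2 and HTRA1 beside PAPPA, where 5.06% of all rows were counted. It was 0 where a mean of at least 1 TPM was asked, since PAPPA was then not tested. PAPPA, the metalloprotease that cuts IGFBP4, was that 1 gene. It measured 0.494, 0.786 and 0.376 TPM in resveratrol and 1.07, 1.64 and 0.825 TPM in control, so every resveratrol library lay below every control library at low levels. Its log2 fold change was -0.97 (SE 0.29, unadjusted p = 0.00750, edgeR adjusted p = 0.733), and the adjusted p ran from 0.229 in DESeq2 to 0.9999 without resveratrol 3. For its relative PAPPA2, which cuts IGFBP5, the log2 fold change was -0.22 (SE 0.27).

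STC1 and STC2 encode stanniocalcins, secreted inhibitors of PAPPA. STC2 measured 1.18, 1.35 and 1.59 TPM in resveratrol and 2.04, 2.16 and 2.70 TPM in control, again without overlap, and its log2 fold change was -0.67 (SE 0.32, edgeR adjusted p = 0.733). STC1 overlapped between the groups, and its log2 fold change was -0.36 (SE 0.28). HTRA1, a serine protease that can cut IGF binding proteins, was far more abundant, at 135, 145 and 129 TPM in resveratrol and 226, 177 and 154 TPM in control. Its log2 fold change was -0.39 (SE 0.20, edgeR adjusted p = 0.733), and control 1 was its highest library, as it was for IGFBP5 and IGFBP6. Groups did not overlap in TPM for 5 of the 31 axis genes, all lower in resveratrol, where 8.15% of all tested rows did not overlap in this direction. In CPM it was 4 of 31, all lower, with 12.6% of all tested rows not overlapping in either direction, and the groups of FOXO1 overlapped. The other 2 of these 5, named after their values were seen, were ITGB3, an integrin subunit, at -0.36 (SE 0.19), and the transcription factor FOXO1 at -0.21 (SE 0.16).

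Of the genes of circulating IGF complexes, IGFALS and IGFBP1 were low transcripts. IGFALS, the acid-labile subunit of the circulating IGF complex, measured 7.29, 6.73 and 4.37 TPM in resveratrol and 7.22, 3.50 and 4.65 TPM in control. IGFBP1, known mainly from liver, lay below the filter, at most at 0.717 TPM in resveratrol and 1.80 TPM in control. The insulin receptor INSR, which shares its substrates with IGF1R, was at a log2 fold change of -0.032 (SE 0.16), and the substrates IRS1 and IRS2 were at -0.014 (SE 0.15) and -0.039 (SE 0.27). IGF2BP2, an RNA-binding protein named for IGF2 mRNA, was at -0.025 (SE 0.25). None of these 5 tested genes had an unadjusted p under 0.05 in edgeR on all 6 libraries.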

How the data were processed

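The authors deposited, for each library, whole-number read counts and TPM (an abundance scaled by them for length and total) in 22844 rows, per the file headers. Tests used the deposited counts, and levels are the deposited TPM. Rows that join several transcripts may count a read more than once, which was not tested. Bowtie 0.12.2 with the builds mm8 and mm9, which are mouse builds, is what the submitters' processing notes name. The rows carry pig Ensembl identifiers. The pig build, annotation, counter and treatment of strand behind them are not stated in the sources used, so no coordinates are printed, and overlapping genes or close paralogs may share reads.

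A table of identifiers gave symbols for 14750 rows. Testing took the 14908 rows whose TPM averaged 0.5 or more across libraries. In edgeR 4.0.16, TMM-scaled counts went through the robust quasi-likelihood test without a covariate, resveratrol over control. P-values were adjusted by Benjamini-Hochberg across these rows, at a threshold of 0.05. The biological coefficient of variation was 0.235. The SE is the absolute log2 fold change over the square root of F, and intervals are 95%. CPM are counts scaled by TMM. Alternatives, in R 4.3.3, were DESeq2 1.42.0, limma 3.58.1 on log2 TPM with pseudocounts of 0.1, 0.5 and 1, other scalings and filters, the replicate number as a block, and leaving out single libraries. All 3 tools were also run on simulated counts, with the same spread setting for all genes and larger changes than the members showed. That run does not tell whether changes of the members' size would be called.

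Members, lists and rules were chosen with earlier results of these data known. All members are named. Of 40 other axis genes, 14 were to be named in any case and the rest where their unadjusted p was under 0.05 in edgeR. The 3 genes most like IGF1 have the smallest mean absolute difference from it in gene-centred log2 CPM (prior count 2), among genes with a symbol and at least 5 TPM on average. Nothing in the labels says that libraries of 1 diet came from different animals, so the p-values reflect the spread of these samples only, which may be technical.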

Additional observations from a re-analysis of the deposited data

How the results depend on the processing

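None of the 8 members passed the adjusted threshold under any of the 17 alternatives, and the log2 fold changes of IGF1 (-0.48 to -0.19), IGF1R (-0.33 to -0.18) and IGF2R (-0.19 to -0.025) kept their sign in all of them. IGFBP2 changed sign with library totals alone in edgeR (0.060). With single libraries left out, signs also changed, and the log2 fold changes ran from -0.33 to 0.21 for IGFBP2, -0.34 to 0.29 for IGFBP4, -0.68 to 0.20 for IGFBP5, -0.50 to 0.29 for IGFBP6 and -0.41 to 0.21 for IGFBP7. The cause was not tested.

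The count of calls over all genes was 0 in edgeR and 40 in DESeq2, and ran from 0 to 4 with single libraries left out, the 4 without control 2. The count at an unadjusted p under 0.05 ran from 408 (without resveratrol 3) to 1678 (without control 3). Among the other axis genes it was 1 in edgeR, 3 in limma at each of the pseudocounts 0.5, 0.1 and 1, 0 with a mean of at least 1 TPM, and ran from 1 to 3 with single libraries left out.

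Same-numbered libraries of the diets deviated together with correlations of 0.157, 0.0741 and 0.2002, and each library correlated best with its own number, a hint from the data and not from the design, so the numbers were not taken as pairs. With the replicate number as a block, calls over all genes stayed at 0 and those at an unadjusted p under 0.05 were 1259. The block put IGF1 at -0.33 and IGFBP5 at -0.22. Depth limits control 2 most, where IGFBP2 had 131 reads.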
